A study of Oryzias latipes with 15 samples.

Results

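Cilia and sperm tails are built by intraflagellar transport, in which trains of IFT-B and IFT-A protein complexes carry tubulin and membrane cargo along the axoneme. Kinesin-II moves the trains outward and dynein-2 brings them back, while the BBSome links membrane proteins to the trains. The transition zone at the cilium base, of which the MKS protein module is a part, controls which proteins enter. In the testis these genes serve the flagella of spermatids as well as the primary cilia of somatic cells. The genes described here are those whose name in the deposited table begins with an intraflagellar transport, Bardet-Biedl syndrome (BBS), MKS, tectonic, ARL13 or related prefix. The name rule took 40 of the 23028 genes, and all 40 passed the level filter of a mean of at least 10 normalized read counts. They comprise 13 IFT-B genes, 6 IFT-A genes, 2 kinesin-II genes, 6 BBSome genes, 8 MKS module genes, 3 further transition zone genes and 2 ARL13 GTPase genes. kif17, cep290 and tctn1, which were to be described in every comparison, had no row under the rule and are not analysed here.

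The 15 RNA-seq libraries came from testis of the medaka, Oryzias latipes, a freshwater fish. Of the 5 groups, each with 3 biological replicates, 1 was an untreated control, 1 received 0.01 mg/L potassium perchlorate (KClO4, the low dose) and 1 received 10 mg/L (the high dose). Another group received 10 mg/L KClO4 with 3 mg/L vitamin C, and the last received vitamin C at 3 mg/L without perchlorate. Perchlorate is known to inhibit the iodide transporter, and the series asks how it alters spermatogenesis and whether vitamin C, an antioxidant, changes that. The labels call the replicates biological but give neither strain, age nor exposure time. They leave unsaid if 1 fish or several made up a replicate. The p-values therefore measure the spread between these samples, which may not be the spread between single fish.

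Recovered depth ran from 3.21 to 21.3 M reads per library, and the shallowest was high-dose replicate 1. Testis markers were detected in every library: the summed level of 11 sperm tail genes ran from 23100 to 32200 normalized counts in the controls. The low-dose libraries stood apart. Their 6 oocyte marker genes summed to between 15700 and 190000 normalized counts, against 178 to 259 in the controls. None of the 6 was at 0 in any group. At the high dose the sum was 520 to 789, with vitamin C added 715 to 927 and with vitamin C alone 949 to 1510. Against control, 3 of the 6 were called higher in each of these groups. Over all genes tested, 18.3%, 2.36% and 0.304% were called higher in the same order. For the egg coat gene zp3b the control libraries held 21.2, 32.4 and 21.4, while low-dose replicate 1 held 11509.5, replicate 2 held 16096 and replicate 3 held 2496. The 4 kidney and gut epithelium markers summed to between 2320 and 4410 at the high dose, where 3 of the 4 were called higher (18.3% of all genes tested). At the low dose they summed to between 837 and 1500, and 2 of the 4 were called higher (24.9% of all genes tested). In the controls they summed to 170.0, 147 and 999, and replicate 3, which held the 999, was also the lowest control for 35 of the 40 members. In bulk tissue, fewer cells of a type and less RNA per cell cannot be told apart.

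Most of these genes were lower at the low dose. A gene was called changed at a limma adjusted p under 0.05, over the 17778 genes tested in a comparison. Of the 40 members, 32 fell, 3 rose and the remaining 5 were not called, where 22.9% of all genes tested were called lower and 24.9% higher. The median log2 fold change was -0.93 over the members and -0.01 over all genes tested. All 3 low-dose libraries lay below all 3 controls for 31 members, as they did for 26.0% of all genes tested, and above them for 2 members (25.1% of all genes tested). Low-dose replicate 2 held the lowest of the 3 values for 31 members, and replicate 3 held the highest for 33.

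**Figure D1:**
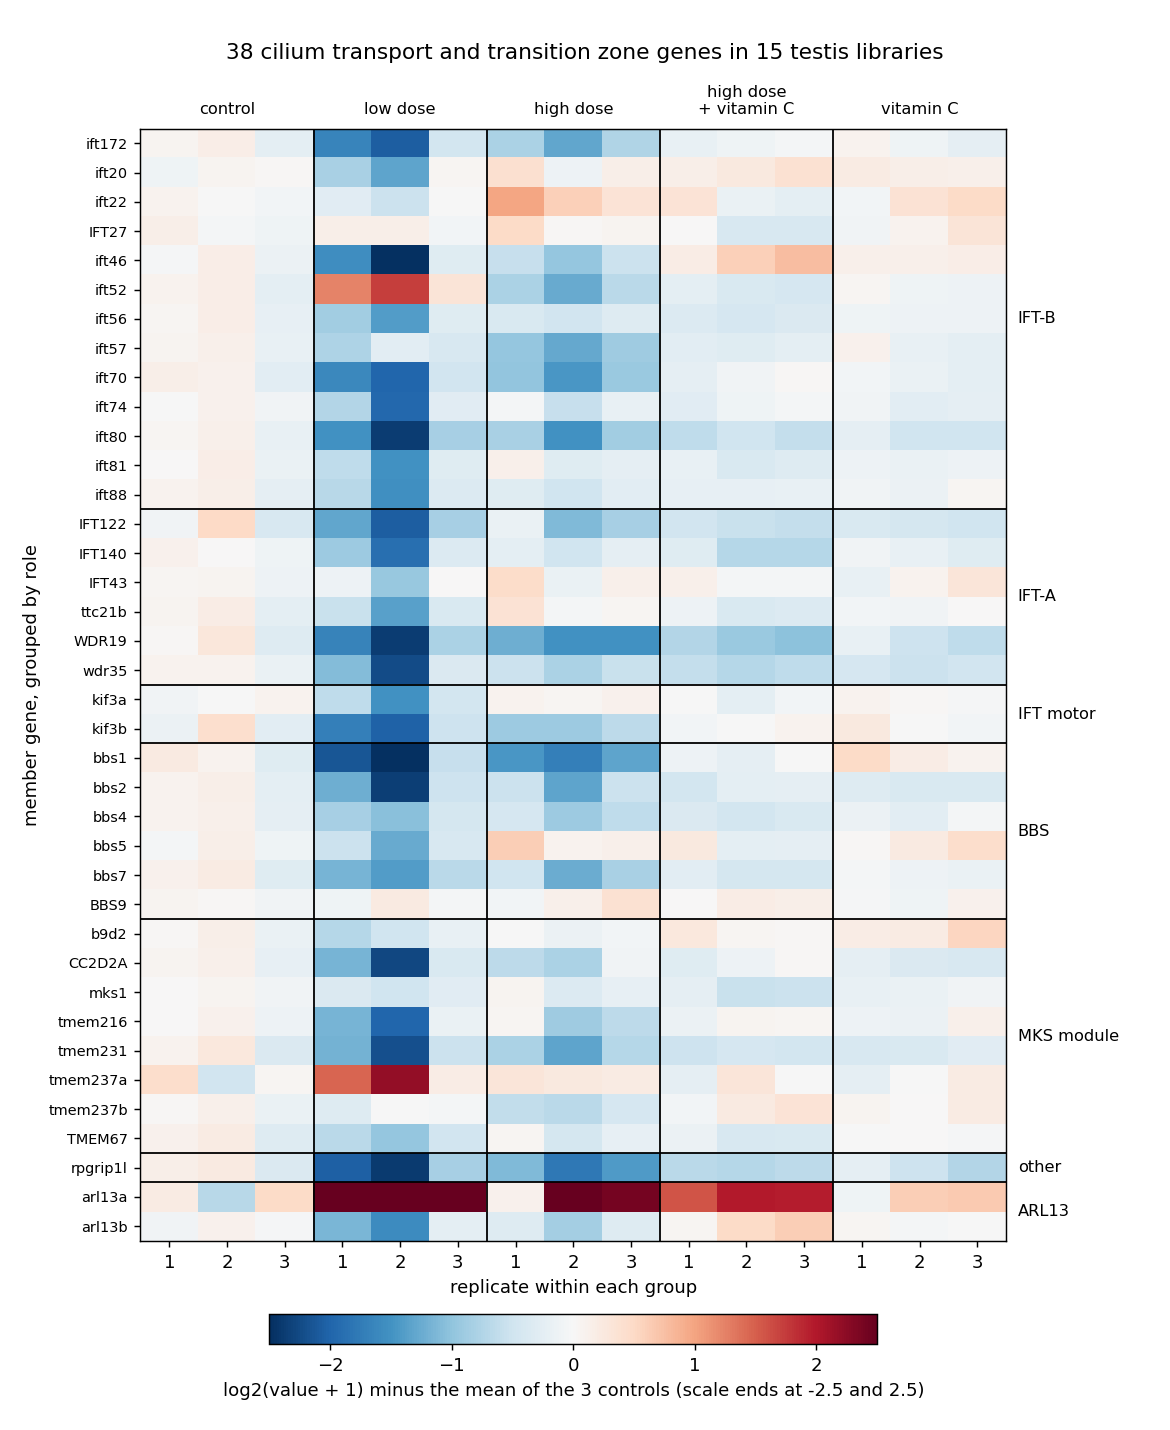
Each row is 1 of 38 members, grouped by role, and each column is a library; colour gives log2(value + 1) minus the mean of the 3 controls, ending at -2.5 and 2.5. The values of arl13a in 4 libraries, and those of bbs1 and ift46 in low-dose replicate 2, lie beyond these ends. Low-dose replicates 1 and 2 hold most of the dark blue cells, with ift52, tmem237a and arl13a red, and WDR19 and rpgrip1l are blue in all high-dose libraries.

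Of the 13 IFT-B genes, which form the outward train, 10 fell, 1 rose and 2 were not called at the low dose; the median log2 fold change was -0.86. ift88, a core subunit needed for cilium assembly in vertebrates, stood at 806, 842 and 653 normalized counts in the controls and at 469, 264 and 602 at the low dose. The groups did not overlap, and replicate 3 of the low dose lay just under the lowest control (log2 fold change -0.86 ± 0.23 SE, n = 3 per group, limma adjusted p = 0.00666). ift80, a peripheral subunit, fell from 1756 ± 199 to 644 ± 326 (SD, n = 3; -1.57 ± 0.29, limma adjusted p = 0.000766). ift46, which carries outer dynein arms in Chlamydomonas, stood at 4715, 5401 and 4375 in the controls and at 1637, 798 and 3904 at the low dose (-1.48 ± 0.37). Replicate 3 lay close under the lowest control and replicate 2 far below it, so that the spread within the low dose was wide.

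The subunit genes ift172 (-1.39 ± 0.30) and ift70 (-1.35 ± 0.28) fell too. So did ift74 (-0.99 ± 0.29) and ift81 (-0.82 ± 0.24), whose products bind tubulin together. Smaller falls were those of ift56 (-0.86 ± 0.21), of ift20 (-0.70 ± 0.25), whose protein also acts at the Golgi, and of ift57 (-0.47 ± 0.17). The ift20 groups overlapped, and its call was lost under 11 of 17 alternative settings, edgeR, DESeq2 and the omission of any 1 of 5 libraries among them, while that of ift57 was lost under 7. The 2 IFT-B genes not called, ift22 (-0.28 ± 0.21) and IFT27 (0.08 ± 0.18), both encode Rab-like small GTPases of the train. Low-dose values of IFT27 were 1275, 1280 and 1100, overlapping the control values of 1279, 1121 and 1069.

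ift52, another core IFT-B subunit gene, went the other way. Its values were 3954, 5588 and 2109 at the low dose and 1773, 1888 and 1408 in the controls (log2 fold change 1.10 ± 0.27, limma adjusted p = 0.00386). All 3 low-dose libraries exceeded all 3 controls, and their order matched that of zp3b in the same libraries. The rise lost its call with only the 2 groups in the fit and with a replicate block, and so did the falls of ift88 and ift46. Without low-dose replicates 1 and 2 together ift52 was at 0.33, ift88 at -0.34 and ift46 at -0.30. Whether oocyte RNA contributes to the ift52 value was not tested.

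arl13a, a paralogue of the ciliary membrane GTPase gene arl13b, rose most. It stood at 3.18, 1.25 and 4.02 normalized counts in the controls, or 3, 1 and 6 reads, and at 235, 403 and 45.0 at the low dose, or 115, 168 and 30 reads. The log2 fold change was 5.50 ± 0.84 (limma adjusted p = 0.000232), on a log2(value + 1) scale that understates the change of a gene so low in the controls. It kept its call under all 17 alternative settings, but it met the one with a mean of at least 50 only through the low dose. Its mean there was 228 normalized counts, against 26.0 at the high dose and less in the other groups. Its low-dose values followed the same order as zp3b, and whether oocyte RNA contributes was not tested. The neighbouring gene xkrx, named from the RefSeq table of assembly ASM223467v1 and chosen after values were seen, rose as well. Its values went from 380, 432 and 340 in the controls to 862, 1304 and 476 (1.09 ± 0.26, limma adjusted p = 0.00401). Over all genes tested 24.9% were called higher. At the high dose xkrx was at -0.62 ± 0.26 and arl13a at 2.17, neither of them called. acot8, a neighbour of ift52, was at -0.67 ± 0.28 at the low dose and was not called. arl13b itself, whose protein activates the GTPase ARL3 in the cilium, fell from 2760 ± 203 to 1502 ± 744 (-0.99 ± 0.27).

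The third rise was that of tmem237a, a transition zone gene read at 13, 19 and 7 reads per low-dose library (1.28 ± 0.47, limma adjusted p = 0.0363). It met the level filter of a mean of at least 10 only through the low dose, where its mean was 27.5 normalized counts. Its mean was 9.45 in the controls, 9.35 at the high dose with vitamin C and 9.10 with vitamin C alone, and just above 10 at the high dose. The groups overlapped, because low-dose replicate 3 stood at 10.5 normalized counts and the controls at 12.7, 6.23 and 9.38. The call was lost under 8 of 16 alternative settings, among them quantile normalization and the omission of control replicate 2 or 3 or of low-dose replicate 1 or 2. Its paralogue tmem237b, at a mean of 975 ± 102 in the controls, did not pass (-0.13 ± 0.16). The sources used here do not say how reads shared by paralogues were counted, so values of both pairs carry that uncertainty.

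**Figure D2:**
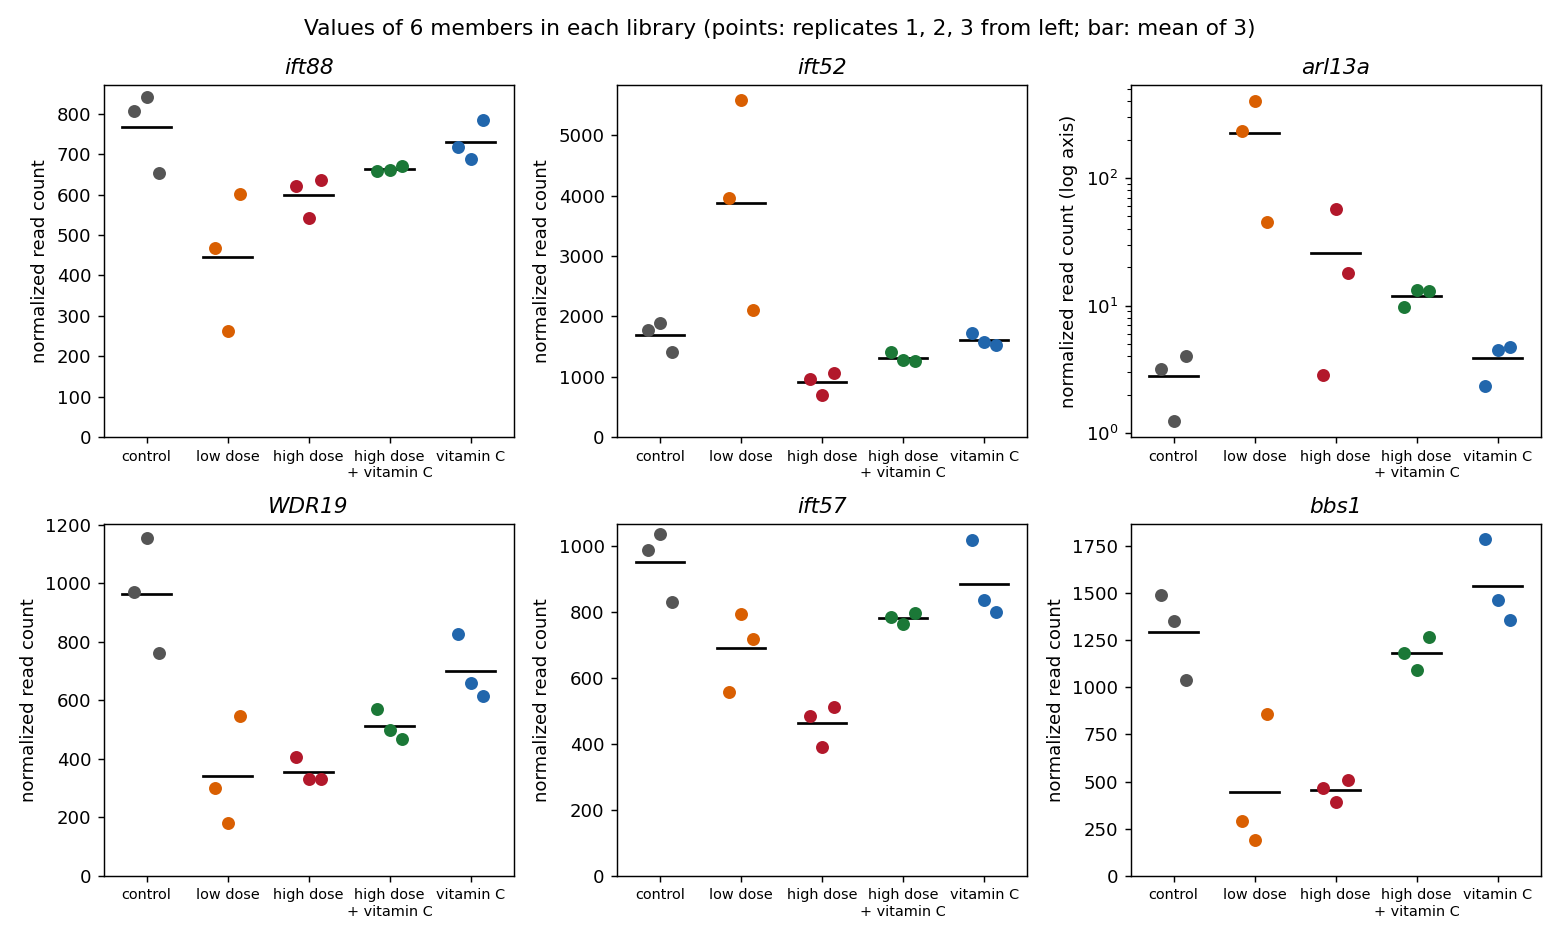
Normalized read counts of 6 members in each library, with points for replicates 1 to 3 from left to right and a bar for the group mean; the arl13a axis is logarithmic and the other axes start at 0. ift88 is lowest in low-dose replicate 2 (264), ift52 and arl13a are highest there (5588 and 403), and WDR19, ift57 and bbs1 are low in all 3 high-dose libraries.

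The IFT-A complex, which serves the return train and the entry of membrane proteins, had 5 of 6 genes lower at the low dose. WDR19, which encodes the IFT144 subunit, stood at 969, 1155 and 760.5 normalized counts in the controls and at 299, 182 and 546 at the low dose (-1.61 ± 0.29, limma adjusted p = 0.000719). IFT122 (-1.39 ± 0.29), wdr35 (-1.23 ± 0.31), IFT140 (-1.05 ± 0.27) and ttc21b (-0.76 ± 0.22) fell as well. IFT43 (-0.36 ± 0.23) was not called. Both kinesin-II motor genes fell: kif3b from 7766 ± 2053 to 3155 ± 1861 (-1.42 ± 0.29) and kif3a from 560 ± 36.1 to 321 ± 112 (-0.87 ± 0.21).

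Of the 6 BBSome genes, 5 fell. bbs1, which encodes the subunit that binds the GTPase ARL6, stood at 1491, 1354 and 1041 in the controls and at 289, 192 and 857 at the low dose (-1.82 ± 0.36, limma adjusted p = 0.0013). bbs2 changed by -1.37 ± 0.33, bbs7 by -1.07 ± 0.21, bbs4 by -0.77 ± 0.18 and bbs5 by -0.73 ± 0.23. BBS9, a scaffold subunit of the same complex, was at 557, 700 and 576 at the low dose and at 628, 607 and 562 in the controls (0.02 ± 0.16). The values of both groups overlapped.

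rpgrip1l, a scaffold gene of the transition zone, stood at 1594, 1676 and 1124 in the controls and at 350, 273 and 814 at the low dose (-1.75 ± 0.31, limma adjusted p = 0.000608). The groups did not overlap, and replicate 3 of the low dose was nearest to the controls. Of the 8 MKS module genes, 6 fell, 1 rose and 1 was not called; the median was -0.58. Among them tmem231 changed by -1.31 ± 0.30, CC2D2A by -1.28 ± 0.33, tmem216 by -1.10 ± 0.33 and TMEM67 by -0.70 ± 0.18. b9d2 (-0.46 ± 0.17) and mks1 (-0.39 ± 0.15) changed least of the 6. Their calls were lost under 9 and 11 of 17 alternative settings, edgeR and the omission of control replicate 1 or 2 or of low-dose replicate 1 or 2 among them for both.

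The falls at the low dose rest most on replicates 1 and 2, which hold the most oocyte RNA. Without both, which leaves 1 low-dose library, the median was -0.37 over the members and -0.01 over all genes tested. In that fit WDR19 was at -0.79, ift80 at -0.83 and arl13a at 3.67. With only the low-dose and control groups in the fit, 11 members fell and 1 rose, against 1345 and 1905 of the 17778 genes tested. Scaling on the genes whose mean in the controls is 500 or more moved the median of all genes to 0.27. It left 27 members lower and 3 higher, against 2516 and 6031 of all genes. Quantile normalization left 32 and 2, against 4856 and 3472.

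In the low-dose libraries the members' level was set beside that of testis cell markers. Over the members, the median log2 difference from the control mean was -0.85 in low-dose replicate 1, -1.53 in replicate 2 and -0.37 in replicate 3. In the same order it was -0.96, -2.10 and -0.43 over the sperm tail markers and -1.30, -1.85 and -0.63 over 7 meiosis markers. Markers of Sertoli cells, the somatic cells that nurse the germ cells, were lower too, with -0.49, -1.43 and -0.19 over 7 genes. Of these 5 fell, where 22.9% of all genes tested were called lower. Over the oocyte markers it was 8.50, 8.94 and 6.40, so that the library with the highest oocyte level had the lowest level of the other 4 lists. The members held 0.350%, 0.203% and 0.635% of the reads there, against 0.734% to 0.849% in the controls. The part of oocyte RNA in these falls was not tested.

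**Figure D3:**
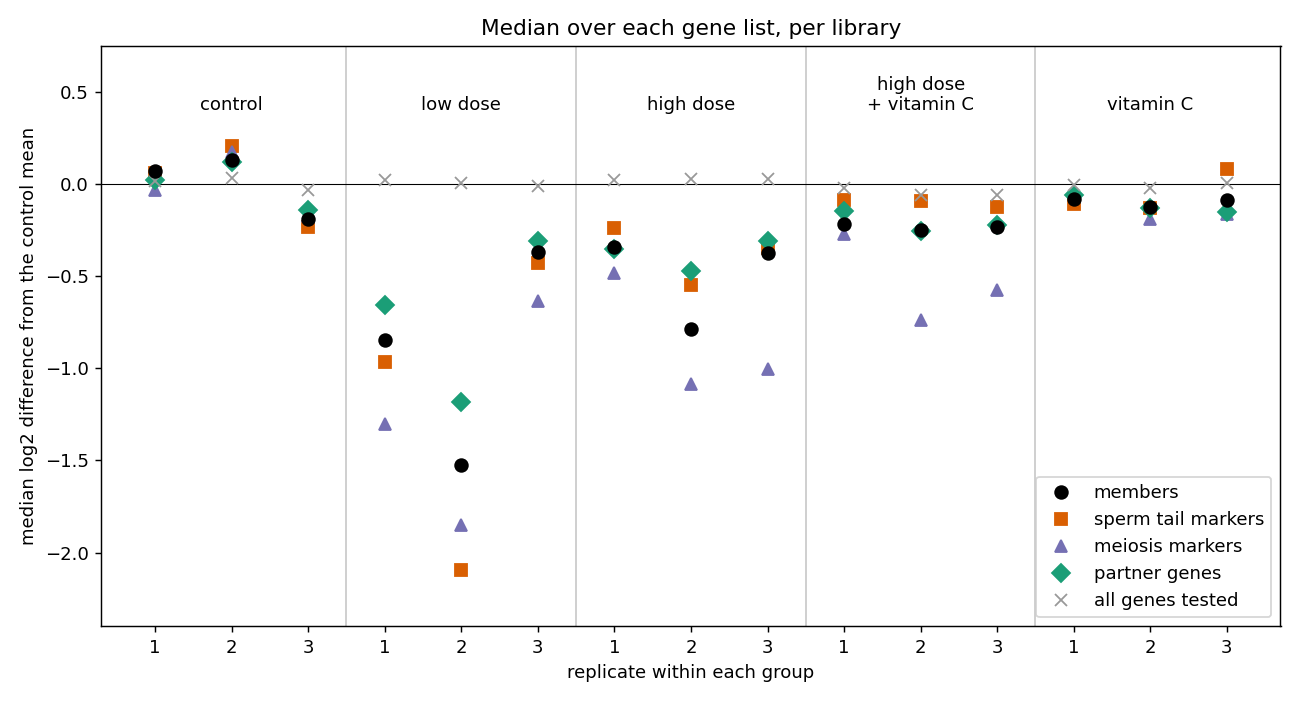
Median log2 difference from the control mean over the 40 members, 11 sperm tail markers, 7 meiosis markers, 74 partner genes and all genes tested, in each of 15 libraries. The members lie at -0.85, -1.53 and -0.37 for the low dose, while the median of all genes stays near 0 in every library.

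At the high dose a smaller part of the members was lower. Of the 40, 15 fell, 1 rose and 24 were not called, where 20.5% of all genes tested were called lower and 18.3% higher. The median log2 fold change was -0.50 over the members and 0.05 over all genes tested, and 22 members had all 3 high-dose libraries below all 3 controls, against 28.8% of all genes tested. For 1 member, ift22, they lay above, as for 28.6% of all genes tested. Of the 7 meiosis markers 4 fell (median -0.82), of the 7 Sertoli markers 2 fell (median -0.06) and of the 11 sperm tail markers 1 fell (median -0.36). Their part in the members' values was not tested. The high-dose and low-dose comparisons share the control libraries. The split depends on the scaling. With scaling on the more abundant genes (control mean 500 or more), which moves the median of all genes to 0.42, 9 members fell and 7 rose. Of the 17778 genes tested, 1824 fell and 5701 rose there, and the median over members was -0.12. With quantile normalization 7 members fell and 3 rose, against 3308 and 2874 of all genes. Without high-dose replicate 2 there were 9 calls and without control replicate 2 there were 10, all of them falls. Over all genes 2651 and 2517 were called lower in these fits.

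rpgrip1l stood at 669, 419 and 539 normalized counts at the high dose against 1594, 1676 and 1124 in the controls (-1.44 ± 0.31, limma adjusted p = 0.00221). All high-dose libraries lay below all controls, and the call held under all 16 alternative settings. So did those of WDR19, ift57 and bbs1.

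In the IFT-B complex 5 of 13 genes fell and 1 rose. ift57 stood at 485.5, 389 and 512 against 987, 1035 and 830 in the controls (-1.04 ± 0.17, limma adjusted p = 0.000378). ift70 (-1.12 ± 0.28), ift80 (-1.07 ± 0.29), ift172 (-0.95 ± 0.30) and ift52 (-0.91 ± 0.27) fell as well. The calls of ift52 and ift172 were lost without control replicate 1, without control replicate 2, without high-dose replicate 2 and with scaling on the more abundant genes. ift22, the Rab-like GTPase gene, rose from 1031 ± 54.0 to 1633 ± 372 (0.64 ± 0.21, limma adjusted p = 0.0253), a call lost when any 1 of 5 libraries was left out. ift88 (-0.35 ± 0.23), ift20 (0.14 ± 0.25) and ift46 (-0.69 ± 0.37) did not pass.

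WDR19 was the only IFT-A gene called, at 405, 332 and 330 against 969, 1155 and 760.5 in the controls (-1.42 ± 0.29, limma adjusted p = 0.00163). IFT122 (-0.70 ± 0.29), wdr35 (-0.63 ± 0.31) and IFT140 (-0.32 ± 0.27) did not pass. Of the motors, kif3b fell from 7766 ± 2053 to 4329 ± 457 (-0.82 ± 0.29, limma adjusted p = 0.0373), a call lost without any 1 of 5 libraries, and kif3a was at 594 ± 13.6 against 560 ± 36.1 (0.08 ± 0.21). bbs1 stood at 465, 390 and 510 against 1491, 1354 and 1041, below every control (-1.50 ± 0.36, limma adjusted p = 0.00479). bbs7 (-0.84 ± 0.21) and bbs4 (-0.65 ± 0.18) fell too, whereas bbs2 (-0.79 ± 0.33), bbs5 (0.28 ± 0.23) and BBS9 (0.15 ± 0.16) did not pass.

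In the MKS module tmem231 (-0.94 ± 0.30) and tmem237b (-0.57 ± 0.16) fell, and both calls were lost under both other scalings and without control replicate 2. CC2D2A (-0.51 ± 0.33), TMEM67 (-0.20 ± 0.18), mks1 (-0.16 ± 0.15) and b9d2 (-0.08 ± 0.17) did not pass. arl13a was uneven, at 2.87, 57.1 and 18.1 normalized counts, or 1, 89 and 17 reads, and did not pass (2.17 ± 0.84, limma adjusted p = 0.0511), although edgeR (adjusted p = 0.00821) and DESeq2 (adjusted p = 0.000642) on the recovered reads called it higher. The forkhead gene foxj1b, a paralogue of foxj1a, the regulator of motile cilia in zebrafish, was uneven in the same way, at 5.75, 121 and 48.9 against 2.12, 2.49 and 4.02 in the controls (3.18 ± 0.74, limma adjusted p = 0.00353). The kidney and gut markers summed to 3730, 2320 and 4410 in high-dose replicates 1, 2 and 3. Their sum was lowest in replicate 2, where arl13a and foxj1b were highest. The part of these markers' tissues in either value was not tested.

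**Figure D4:**
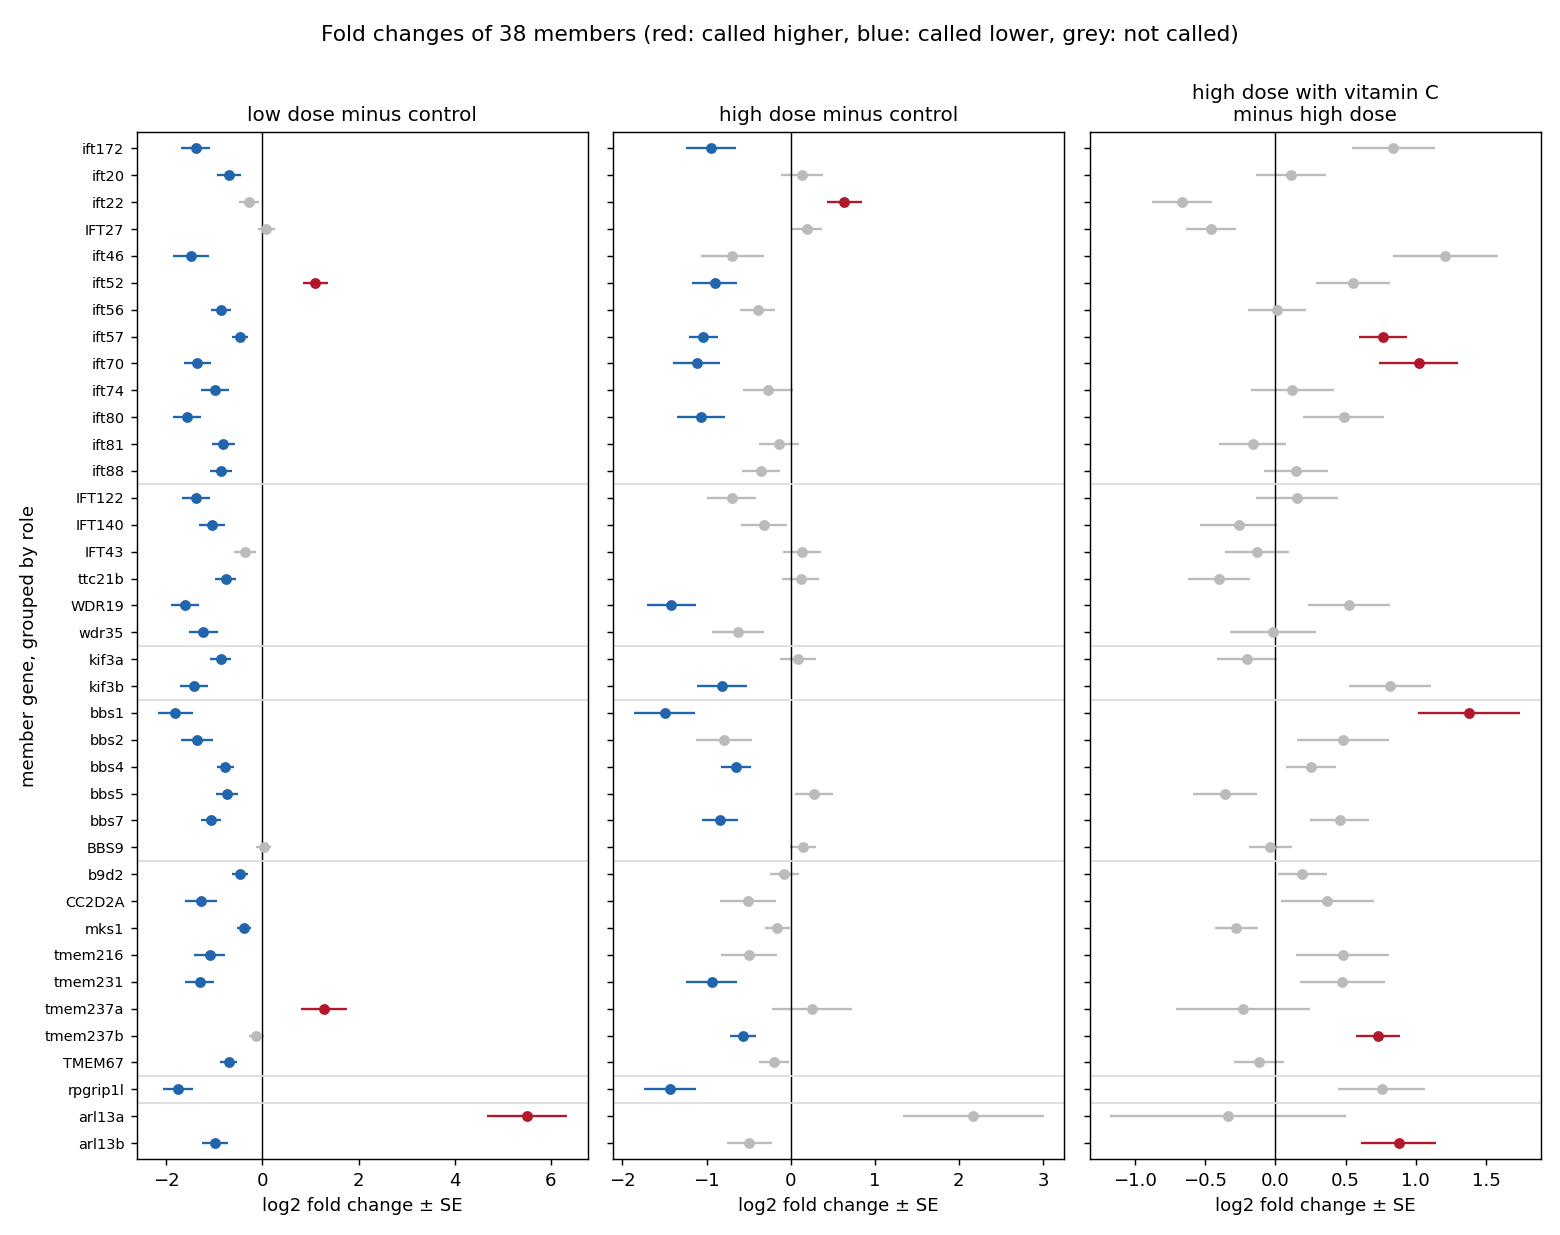
Log2 fold changes ± SE of 38 members, from a fit over 15 libraries with 3 per group, for the low dose and the high dose against control and for vitamin C added to the high dose; horizontal scales differ between panels. Called falls (blue) number 30, 13 and 0 and called rises (red) 3, 1 and 5 in the 3 panels, and BBS9 and IFT27 are grey throughout.

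The 2 doses were compared directly. At the high dose 8 of the 40 members stood higher and 4 lower, where 22.4% of all genes tested were called higher and 26.1% lower. ift52 was lower, at 968, 702 and 1053 against 3954, 5588 and 2109 (-2.01 ± 0.27, limma adjusted p = 6.89e-05). Its call held under all 17 alternative settings. arl13a (-3.33 ± 0.84), ift57 (-0.57 ± 0.17) and tmem237b (-0.43 ± 0.16) were lower as well.

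The 8 members higher at the high dose were bbs5 (1.02 ± 0.23), kif3a (0.96 ± 0.21), ift22 (0.92 ± 0.21), ttc21b (0.88 ± 0.22), ift20 (0.83 ± 0.25), IFT140 (0.73 ± 0.27), ift81 (0.68 ± 0.24) and TMEM67 (0.51 ± 0.18). rpgrip1l differed between the doses by 0.32 ± 0.31 and was not called, which does not show that the doses were equal. These counts turn on the low-dose libraries. Without low-dose replicate 3, 29 were higher and 5 lower, against 5688 and 5878 of the 17778 genes tested. Without low-dose replicate 2, 4 were higher and 3 lower, against 2551 and 3403 of all genes. Without high-dose replicate 1 it was again 4 and 3, against 3670 and 4279. Without low-dose replicates 1 and 2 together, which leaves 1 low-dose library, the median over members was -0.20. With only these 2 groups in the fit, ift52 alone was called, against 895 of all genes higher and 1673 lower. Quantile normalization gave 23 higher and 3 lower, against 4539 and 3579.

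Adding vitamin C to the high dose was compared with the high dose alone. Of the 40 members, 7 rose, 0 fell and 33 were not called, where 7.74% of all genes tested were called higher and 2.64% lower. The median log2 fold change was 0.22 over the members and -0.10 over all genes tested. All 3 libraries with vitamin C exceeded all 3 high-dose libraries for 19 members, against 21.3% of all genes tested, and lay below them for 4, against 19.1%. At an unadjusted p under 0.05 there were 14 members, and the number over all genes was not counted. edgeR called 8 members higher and 0 lower, and DESeq2 8 higher and 1 lower. Over all genes edgeR called 1791 higher and 795 lower, and DESeq2 1993 and 1732. The kidney and gut markers summed to between 109 and 138 normalized counts with vitamin C, against 2320 to 4410 without it.

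bbs1 stood at 1181, 1091 and 1267.5 with vitamin C and at 465, 390 and 510 without it (1.38 ± 0.36, limma adjusted p = 0.0261). The groups did not overlap. ift70 (1.02 ± 0.28), arl13b (0.88 ± 0.27), ift57 (0.77 ± 0.17) and tmem237b (0.73 ± 0.16) were also among the rises. The calls of bbs1, ift70 and arl13b were lost under 5, 6 and 8 of 16 alternative settings. Those of ift57 and tmem237b were lost under 2 and 1. Of the 7 calls, 0 held under all settings.

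Several members did not pass with values to the same side, such as ift46 (1.21 ± 0.37, limma adjusted p = 0.0506), ift172 (0.84 ± 0.30), kif3b (0.81 ± 0.29) and rpgrip1l (0.76 ± 0.31). Values to the other side were those of ift22 (-0.66 ± 0.21, limma adjusted p = 0.0552), IFT27 (-0.46 ± 0.18), ttc21b (-0.40 ± 0.22) and bbs5 (-0.36 ± 0.23), and ift88 was at 0.15 ± 0.23. Same-numbered libraries of these groups deviated together, although no label pairs them and pairing is not shown. The fit with a replicate block called 16 members higher and 4 lower, against 2847 and 2602 of the 17778 genes tested. The added rises there were those of ift46, ift172, kif3b, rpgrip1l, WDR19, ift80, bbs7, tmem231 and ift52, and the falls those of ift22, IFT27, ttc21b and bbs5. The counts hang on single libraries: without high-dose replicate 2 tmem237b alone was called, and without replicate 3 of the group with vitamin C there was 1 call. Without high-dose replicate 1 there were 4 calls, and without replicate 2 of the group with vitamin C there were 3, all of them rises. Over all genes, those called higher went from 1376 to 391, 409, 1115 and 486 in the same order. Scaling on the more abundant genes, which puts the median of all genes at -0.29, gave 5 higher and 3 lower, against 787 and 965 of all genes. Quantile normalization gave 4 and 2, against 1727 and 906.

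Fish given the high dose with vitamin C were compared with controls. limma called 0 of 40 members higher and 0 lower, where 2.36% and 1.26% of all genes tested were called. At an unadjusted p under 0.05 there were 7 members, and the number over all genes was not counted. edgeR called 0 members and DESeq2 called 3 lower, WDR19 and mks1 among them. Over all genes edgeR called 590 higher and 200 lower, and DESeq2 1018 and 915. The median over members was -0.23; 14 members had all 3 libraries below all 3 controls, against 22.0% of all genes tested, and 3 had them above, against 17.6%. WDR19 stood at 569, 498 and 467 against 969, 1155 and 760.5 in the controls, below each of them (-0.89 ± 0.29, limma adjusted p = 0.0919). bbs1 (-0.12 ± 0.36), kif3b (-0.0022 ± 0.29) and ift172 (-0.11 ± 0.30) were close to 0 with errors of this size. ift46 was at 5506, 7223.5 and 8211 against 4715, 5401 and 4375, above every control without passing (0.52 ± 0.37). With only these 2 groups in the fit 9 members fell and 1 rose, against 1969 and 1735 of the 17778 genes tested.

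Vitamin C alone was compared with control. limma called 0 of 40 members higher and 0 lower, as edgeR and DESeq2 did, where 0.304% and 0.101% of all genes tested were called. At an unadjusted p under 0.05 there was 1 member, and the number over all genes was not counted. The median over members was -0.07, and 6 members had all 3 libraries below all 3 controls (13.0% of all genes tested) and 2 above (14.6%). bbs1 stood at 1788, 1466 and 1356 (0.25 ± 0.36), and ift88 at 719, 687 and 786 (-0.06 ± 0.23).

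The interaction asks whether the perchlorate effect differed between fish with and without vitamin C. Of the 40 members 2 passed, both higher, where 5.6% of all genes tested were called higher and 2.47% lower. With a replicate block 17 were higher and 1 lower, against 2804 and 2315 of the 17778 genes tested. Among these 4 groups, same-numbered libraries deviated together in all replicates only between the high dose and the high dose plus vitamin C. Pairing is not shown for them either. Scaling on the more abundant genes, which puts the median of all genes at -0.35, gave 1 higher and 2 lower, against 504 and 783 of all genes. For ift57 the high dose changed the log2 value by -1.04 ± 0.17 without vitamin C, and the interaction was 0.87 ± 0.24 (limma adjusted p = 0.0416). This call was lost under 11 of the 21 alternative settings, among them those without control replicate 1 or 2, high-dose replicate 2, any 1 replicate of the high dose with vitamin C, or replicate 2 or 3 of vitamin C alone. ift70 (1.18 ± 0.40), rpgrip1l (1.25 ± 0.44) and bbs1 (1.13 ± 0.52) passed under the block and not without it. So did ift22, to the other side (-0.93 ± 0.30, limma adjusted p = 0.0642 without the block).

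Partner genes, which are further cilium genes that the name rule does not take, were counted beside the members. They include 16 transcription factor genes tied to cilia. Of 103 names listed for partner genes, 74 tested genes were found. At the low dose 44 fell and 7 rose, the median being -0.80, where 22.9% of all genes tested were called lower and 24.9% higher. At the high dose 27 fell and 3 rose, the median being -0.37, where 20.5% were called lower and 18.3% higher. With vitamin C added to the high dose 6 rose and 0 fell, a share near that of all genes tested (7.74% called higher).

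DYNC2H1, kifap3b, ttc8, TULP3 and cluap1 were picked after their values were seen. DYNC2H1, the heavy chain of the dynein-2 return motor, stood at 591, 324 and 1060 at the low dose and at 1161, 853 and 894 at the high dose, against 1984, 2061 and 1363 in the controls. It fell at both (-1.59 ± 0.31 and -0.88 ± 0.31), while kifap3b, the kinesin-II accessory subunit gene, did not pass at either (-0.04 ± 0.18 and 0.21 ± 0.18). ttc8, a BBSome gene (BBS8), changed by -1.55 ± 0.30 and -0.83 ± 0.30. TULP3, whose protein bridges membrane receptors to IFT-A, changed by -2.05 ± 0.37 and -1.49 ± 0.37. cluap1, an IFT-B gene under another name, fell at the low dose (-0.76 ± 0.22) and was at 0.06 ± 0.22 at the high dose.

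nek8 and invs, which belong to the inversin compartment, fell at both doses. nek8 changed by -1.51 ± 0.24 and -1.17 ± 0.24, and invs by -0.83 ± 0.21 and -1.03 ± 0.21. invs stood at 130, 200 and 171 with vitamin C added to the high dose and at 109, 96.3 and 93.5 without it (0.72 ± 0.21, limma adjusted p = 0.0431). Its interaction passed as well (1.39 ± 0.30, limma adjusted p = 0.0175), as did that of nek8 (1.23 ± 0.35, limma adjusted p = 0.0413). In the interaction 5 of the 74 partner genes were called higher and 1 lower, near the 5.6% and 2.47% of all genes tested. TOGARAM1, a ciliary microtubule-binding protein gene, fell at both doses (-1.15 ± 0.20 and -0.83 ± 0.20). The centrosomal gene ninl fell at both (-0.90 ± 0.22 and -1.20 ± 0.22) and rose with vitamin C added (0.87 ± 0.22), as did rab3ip, the activator gene of RAB8 (1.06 ± 0.21). arl3b, which encodes a GTPase that releases lipidated cargo in the cilium, fell at both doses (-1.72 ± 0.32 and -1.56 ± 0.32). By adjusted p, those that rose at the low dose were led by unc119b (1.60 ± 0.39), trim32 (1.39 ± 0.40), cby1 (0.87 ± 0.29) and CILK1 (0.66 ± 0.22), and at the high dose, beside foxj1b, by RFX7 (0.76 ± 0.19) and dynll1 (1.17 ± 0.35).

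Of the 16 transcription factor genes among these partner genes, 10 fell and 1 rose at the low dose, and 6 fell and 2 rose at the high dose. Over all genes tested, 22.9% were called lower and 24.9% higher at the low dose, and 20.5% and 18.3% at the high dose. The 1 rise at the low dose was foxj1b, at 18.4, 14.4 and 9.01 (1.92 ± 0.74, limma adjusted p = 0.0421). rfx2, a regulator of ciliary genes in mouse spermatids that was picked after its values were seen, stood at 1009.5, 1237 and 621 in the controls, at 229, 88.7 and 335 at the low dose and at 540, 279 and 282 at the high dose. It fell at both (-2.27 ± 0.40 and -1.39 ± 0.40), as did RFX1 (-1.47 ± 0.24 and -2.00 ± 0.24) and e2f5 (-1.63 ± 0.26 and -1.62 ± 0.26). e2f5, needed for multiciliated cells together with E2F4 in the mouse, rose with vitamin C added to the high dose, from 949 to 2915 in the mean (1.61 ± 0.26, limma adjusted p = 0.00236), and RFX1 rose by 1.14 ± 0.24. foxj1a (-1.12 ± 0.29) and rfx3 (-1.78 ± 0.36), also picked so, fell at the low dose and were at -0.25 ± 0.29 and -0.23 ± 0.36 at the high dose. myb was the 1 partner gene lower with vitamin C and the high dose against control (-1.04 ± 0.28, limma adjusted p = 0.049).

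The members also varied by their joint pattern over the 2 doses. In all, 13 members were called lower at both doses, as 11.4% of all genes tested were, and 19 at the low dose with no call at the high dose, as 11.3% were. Of those 19, 7 were called in the direct test between the doses. BBS9, IFT27 and IFT43 were called at neither dose. The 19 included 4 of the 6 IFT-A genes, whereas WDR19 and rpgrip1l were among the 13. Since these 2 comparisons share the controls, the joint counts are a description. By symbol, 33 members matched the RefSeq table of assembly ASM223467v1, and 0 of them had another member as the next protein-coding gene on either side.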

How the data were processed

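The submitters' processing notes name fastp 0.23.2, STAR 2.7.7a and DESeq2 1.34.0, with build, counting step and strand setting not given in the sources used here, so no coordinates are printed. Total RNA libraries were made with NEBNext Ultra II reagents, per the labels' protocols. The deposited values are a signal, a normalized read count per gene and library. Each was a whole multiple of its library's smallest value (100% of 345420 values, within 0.001), which gave back the reads. Replicates differed by more than sampling noise (chi-square per degree of freedom 3.42 to 142).

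limma 3.58.1 with a mean-variance trend in R 4.3.3 was fitted once to log2(value + 1) of 15 libraries and 17778 genes with a mean of at least 10, with Benjamini-Hochberg adjustment over all genes of each comparison; a limma adjusted p under 0.05 is a call. A fold change on this scale understates the change of low genes. The spread is shared by all groups, so errors can be too small for the uneven low dose and too large for the other groups. Alternatives included edgeR 4.0.16 and DESeq2 1.42.0 on the recovered reads. Correlations of same-numbered libraries' deviations from their group means were 0.361, 0.198 and 0.124 between the high dose and the high dose plus vitamin C. All 3 were over the bound of 0.1, and in no other 2 groups did all 3 exceed it. Correlations between libraries of different numbers were not computed, and the labels give no pairing. That the replicate numbers pair these libraries is therefore not shown. Genes to name were a fixed panel of 25 members, the 8 called with the smallest adjusted p in each direction, members moving against the rest, and up to 4 called partner genes in each direction; genes outside it are said to be picked after their values were seen. Members and lists were chosen with earlier results of these data known. Of the 40 members, 2 enter the counts and medians and are not reported here otherwise. No member sequences are shown.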

Additional observations from a re-analysis of the deposited data

Results flagged for a closer look

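ift57 was noted because it passed the test of the interaction, which compares the effect of the high dose between fish with and without vitamin C. The interaction was 0.87 on the log2 scale (± 0.24 SE, limma adjusted p = 0.0416). This call was lost under 11 of 21 alternative settings. In all, 2 of 40 members were called higher in this test (5.0%), near the 5.6% of all genes tested. High-dose values were 485.5, 389 and 512 against 987, 1035 and 830 in controls, and values of the high dose with vitamin C were 784, 763 and 797 against 1020, 837 and 801 with vitamin C alone. The kidney and gut markers were also highest in the high-dose libraries (2320 to 4410 summed, against 109 to 999 in the other 3 groups of this test), and their part was not tested.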

How the results depend on the processing

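Counts below are members called out of 40. Calls over all genes moved with the settings too. At the low dose those called lower went from 4076 to 1345 with only the 2 groups in the fit. With a replicate block they went to 8. With only the 2 groups compared in the fit, calls numbered 12 for the low dose, 1 for the high against the low dose, 14 for vitamin C added to the high dose, 10 for the high dose with vitamin C against control and 1 for vitamin C alone. With a replicate block there were 2, 3, 20, 11 and 6 in the same order, and 18 for the interaction. Over all genes, the block called 1157 higher and 2218 lower for the high against the low dose. For the high dose with vitamin C against control it called 2128 and 2146, where the fit of all 15 libraries called 419 and 224. For vitamin C alone it called 1151 and 1419, where that fit called 54 and 18 and the fit of 2 groups 394 and 277. No label pairs same-numbered libraries, and outside the 2 groups named in the methods the numbers are shared by name only. Without low-dose replicates 1 and 2 there were 4 for the low dose and 4 for the high against the low dose, where bbs1 turned to -0.92 (limma adjusted p = 0.0114), and ift20 at the low dose turned to 0.0435. Quantile normalization gave 10 for the high dose, 26 for the high against the low dose, where tmem237b turned to 0.0011, and 1 for the interaction. Scaling on the more abundant genes gave 20 for the high against the low dose, where 4678 of all genes were called higher and 3895 lower. DESeq2 gave 3 for the high dose with vitamin C against control and 6 for the interaction, and dropping the filter gave 1 for the interaction. Over all genes the interaction had 1791 higher and 1362 lower with DESeq2, and 807 and 386 without the filter. With quantile normalization it had 937 and 592. Leaving out 1 library at a time gave 29 to 36 calls for the low dose, 9 to 16 for the high dose and 7 to 34 for the high against the low dose. It gave 1 to 6 for vitamin C added, 0 to 1 for the high dose with vitamin C against control, 0 for vitamin C alone and 1 to 3 for the interaction. Over all genes, those called lower then ran from 2907 to 5254 for the low dose and from 2517 to 3534 for the high dose. Those called higher ran from 391 to 1153 for vitamin C added and from 92 to 1263 for the interaction. The causes were not tested. Fits with fewer libraries estimate the spread from fewer samples, and fits of 2 groups without the low dose also leave out its uneven libraries. For the high dose against control such a fit called 23 members, against 16 in the fit of all 15 libraries. Over all genes it called 3896 higher and 4149 lower, against 3248 and 3638. Depth limits tmem237a, read at 4 to 19 reads per library, and arl13a, which passed 100 reads only in low-dose replicates 1 and 2 (115 and 168). The partner gene foxj1b also rests on few reads in the controls and at the low dose. In low-dose replicate 2, WDR19, wdr35, kif3a, bbs1 and tmem216 were also under 100, at 76, 60, 81, 80 and 91 reads.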
